A study of Homo sapiens with 22 samples.

Results

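The amino acid stress response is represented here by 33 genes, ATF4 and genes of its pathway, which were chosen by symbol in the deposited tables of 2 RNA sequencing experiments. CBS was not analysed here, and the other 32 genes were measured in both experiments, among 25244 genes in the HUWE1 experiment and 25791 genes in the MIZ1 experiment. When amino acids run short or the endoplasmic reticulum, mitochondria or haem supply are disturbed, kinases phosphorylate the initiation factor eIF2alpha. General translation then slows, while the mRNA of the transcription factor ATF4 is translated more. ATF4 pairs with C/EBP family factors on composite promoter elements and raises amino acid transporters, amino acid synthesis enzymes and regulators of its own output, and in tumor cells this program is known for sustaining the amino acid supply of fast growth.

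All libraries came from Ls174T, an established human colon carcinoma line that depends on MYC. In the HUWE1 experiment, cells with a constitutive shRNA against the ubiquitin ligase HUWE1 and cells with the empty pLKO vector each received the HUWE1 inhibitor BI8622 at 20 µM for 16 h or DMSO. In the MIZ1 experiment, all cells carried a doxycycline-inducible shRNA against MIZ1, a zinc finger partner of MYC encoded by ZBTB17, were kept with 1 µg/ml doxycycline for 4 days or without it, and received BI8622 or DMSO. Each of the 4 groups of an experiment held 2 libraries. The shHUWE1 cells had been selected with puromycin, flow sorting was, per the study's methods, part of making MIZ1-depleted cells, and no doxycycline-treated cells without the MIZ1 shRNA were analysed here, so that doxycycline and the shRNA it induces cannot be told apart.

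The tables give no values per library. For each comparison of 2 groups they hold the log2 fold change, the mean expression level in CPM (read counts scaled to library size) and the p-value of each gene, from which the level of each group and a standard error were worked out. That standard error is shared by all genes of one expression level. It does not show the spread of a single gene between its 2 libraries, and CPM does not correct for gene length, so levels are compared between groups and not between genes. A gene was called when its adjusted p-value over all genes was under 0.05.

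The labels were checked first on the targeted genes and on markers. In DMSO, HUWE1 mRNA was lower in shHUWE1 cells than with the empty vector, by a log2 difference of -0.96 ± 0.14 (SE, adjusted p = 2.87e-08). ZBTB17 differed by -0.53 ± 0.24 between cells with and without doxycycline in DMSO (adjusted p = 1) and by -0.99 ± 0.23 in BI8622 (adjusted p = 0.0519), so that MIZ1 depletion was not called at the RNA level. The study probed MIZ1 protein in such cells by immunoblot and describes them as MIZ1-depleted. Of 10 colon epithelial markers 10 were measured in both experiments, against 2 of 8 fibroblast markers, 3 of 8 leukocyte markers and, of 6 endothelial markers, 2 in the HUWE1 and 3 in the MIZ1 experiment. The summed level of the measured fibroblast markers was 7.26 CPM with BI8622 and 7.38 CPM with DMSO in control vector cells, and that of the endothelial markers was 3.17 and 3.01 CPM. The leukocyte sum of 187 CPM with BI8622 and 200 CPM with DMSO came almost wholly from a single gene (184 and 195 CPM).

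BI8622 raised most genes of the pathway in every cell population. In shHUWE1 cells 21 of 32 genes were called higher and 0 lower, where 7.56% of all genes were called higher and 8.07% lower. In control vector cells 26 were called higher and 1 lower, beside 9.73% and 9.31% of all genes. With doxycycline the counts were 25 higher and 2 lower (7.74% and 7.86% of all genes), and without it 27 higher and 2 lower (12.2% and 11.6% of all genes). The median log2 fold change of the 32 genes was 0.55 in shHUWE1 cells, 0.80 in control vector cells, 1.27 with doxycycline and 1.39 without it, whereas the median over all genes lay between -0.02 and 0.01 in these comparisons. All 4 responses called 21 of the 32 genes higher, against 896 of 24560 genes (3.65%) present in both tables. These were ATF4, DDIT3, CEBPB, CEBPG, JDP2, NUPR1, TRIB3, CHAC1, SESN2, DDIT4, PPP1R15A, SLC7A11, SLC6A9, SLC38A2, ASNS, CTH, PCK2, VLDLR, STC2, GDF15 and XPOT. SLC7A5, SLC3A2, PYCR1 and ALDH18A1 were called higher in none of the responses.

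Promoter windows were searched for the elements through which the pathway is known to act. RefSeq windows (GRCh38.p14, 250 bases before to 50 after a gene's start, some genes with several) were found for 28 of the 32 genes. The core TGATGNAA of the C/EBP-ATF response element occurred on either strand in 9 of these 28 genes, against 1217 of 27305 genes with a window (4.46%). Its 9 genes were ATF3, CEBPG, JDP2, CHAC1, SLC3A2, SLC7A1, SLC1A4, SLC1A5 and ASNS. The E-box CACGTG, known as the element of MYC and MAX, occurred in 5 genes, ATF4, SLC7A5, SLC1A5, SLC43A1 and ALDH18A1, against 8.77% of all genes. The palindrome TGACGTCA of CREB and ATF factors occurred in 1, PPP1R15A, against 2.25% of all genes. The stretches below show the core upstream of a RefSeq start of 4 genes that rose in all responses and of SLC1A5, which holds both elements. They also show the E-box of SLC7A5 and ALDH18A1, which rose in none. These are examples, and other genes went the other way. ATF4 holds an E-box and was called higher in all responses, and SLC3A2 holds the core and was called higher in none. Capitals mark the matched element, and each stretch is written 5′ to 3′ on the gene's strand. Each was found once on that strand of its own chromosome in GRCh37, the only sequence searched for it.

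ASNS, chr7:97501770-97501799, minus strand: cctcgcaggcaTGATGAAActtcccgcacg
CHAC1, chr15:41245449-41245478, plus strand: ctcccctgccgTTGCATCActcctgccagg
CEBPG, chr19:33864932-33865018, plus strand: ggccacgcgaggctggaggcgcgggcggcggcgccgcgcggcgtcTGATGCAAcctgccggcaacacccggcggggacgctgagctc
JDP2, chr14:75894664-75894724, plus strand: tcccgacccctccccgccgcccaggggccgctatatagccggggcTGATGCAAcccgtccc
SLC1A5, chr19:47288150-47288179, minus strand: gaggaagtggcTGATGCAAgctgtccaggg
SLC7A5, chr16:87903193-87903288, minus strand: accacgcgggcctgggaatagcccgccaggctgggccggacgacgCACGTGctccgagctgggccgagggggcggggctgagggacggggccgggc
ALDH18A1, chr10:97416554-97416649, minus strand: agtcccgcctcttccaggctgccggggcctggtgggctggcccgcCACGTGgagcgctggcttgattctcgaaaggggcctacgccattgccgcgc

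The ASNS element lay 68 bases before the RefSeq start and the CHAC1 element, read on the other strand, 209 bases before it. Around the elements of ASNS, CHAC1 and SLC1A5, GENCODE also annotates an untranslated exon of another transcript. The SLC1A5 stretch lies inside the annotated gene, which spans 47278140 to 47291851 on the minus strand, and so lies upstream of an internal start only. The stretches of ASNS, CHAC1, CEBPG and JDP2 also lie within the annotated spans of their genes. Of the 9 genes with the core, 4 were called higher in shHUWE1 cells, 7 in control vector cells, 8 with doxycycline and 8 without it. Of the 19 genes with a window and no match, 15, 16, 15 and 17 were called higher in the same populations. Of the 5 genes with an E-box, 1 was called higher and 0 lower in shHUWE1 cells and 3 higher and 1 lower in control vector cells, and 2 were called higher and 2 lower with doxycycline and 3 higher and 2 lower without it. Of the 23 genes without one, 18, 20, 21 and 22 were called higher in these populations and 0 lower. These counts were not tested. A match describes letters in a window and says nothing of what binds there.

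Among the transcription factors, the mRNA of ATF4 itself rose modestly. It stood at 313 CPM with BI8622 and 217 CPM with DMSO in shHUWE1 cells, a log2 fold change of 0.53 ± 0.12 (SE, n = 2 libraries per group; edgeR adjusted p = 0.000419). Control vector cells had 367 CPM with BI8622 and 251 CPM with DMSO, a change of 0.55 ± 0.13. The change was 0.76 ± 0.21 with doxycycline and 0.92 ± 0.18 without it. DDIT3, which encodes the stress factor CHOP, had a response that differed widely between the experiments. In the HUWE1 experiment DDIT3 reached 17.4 CPM with BI8622 against 7.87 CPM with DMSO in shHUWE1 cells and 22.5 against 9.63 CPM in control vector cells, 2.21-fold and 2.34-fold higher. In the MIZ1 experiment it reached 75.9 CPM with BI8622 against 8.45 CPM with DMSO in the presence of doxycycline and 70.6 against 8.31 CPM in its absence, 8.98-fold and 8.50-fold higher. Its DMSO levels thus lay between 7.87 and 9.63 CPM in all 4 populations, in tables normalized separately, while the treated levels lay far apart.

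The C/EBP factors rose as well. CEBPB changed by 0.55 ± 0.18 in shHUWE1 cells, 1.12 ± 0.18 in control vector cells, 2.11 ± 0.23 with doxycycline and 1.83 ± 0.20 without it. CEBPG, the C/EBP partner that heterodimerizes with ATF4, changed by 0.41 ± 0.13, 0.53 ± 0.13, 1.15 ± 0.22 and 1.04 ± 0.18 in the same order. JDP2, an AP-1 family repressor, changed by 0.72 ± 0.19, 1.24 ± 0.18, 1.75 ± 0.24 and 1.94 ± 0.21. The stress-induced chromatin protein gene NUPR1 changed by 0.62 ± 0.14, 0.79 ± 0.14, 1.41 ± 0.22 and 1.66 ± 0.18. The other ATF genes moved less. ATF3, an early stress factor, was called only in the MIZ1 experiment, by 0.96 ± 0.23 with doxycycline and 0.69 ± 0.19 without it, and had values of 0.36 ± 0.16 and 0.24 ± 0.16 in shHUWE1 and control vector cells. ATF5, a factor of the mitochondrial stress response that is controlled by translation much as ATF4 is, was called only without doxycycline (0.57 ± 0.19, adjusted p = 0.0119), where the value with doxycycline was 0.56 ± 0.22 (adjusted p = 0.0678).

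The 5 stress effectors and feedback genes were called higher in all 4 responses, with a median of 1.14 in shHUWE1 cells, 1.41 in control vector cells, 2.03 with doxycycline and 2.51 without it. TRIB3, a pseudokinase that restrains ATF4, stood at 105 CPM with BI8622 and 43.4 CPM with DMSO in shHUWE1 cells and at 200 and 58.7 CPM in control vector cells. With doxycycline it stood at 461 CPM in BI8622 and 57.7 CPM in DMSO, and without doxycycline at 459 and 55 CPM. PPP1R15A encodes GADD34, the phosphatase subunit that reverses eIF2alpha phosphorylation. It rose 2.21-fold in shHUWE1 cells and 2.65-fold in control vector cells, and 11-fold with doxycycline and 9.99-fold without it. DDIT4, an inhibitor of mTORC1 also known as REDD1, was the effector whose response was most alike in the 4 populations, with log2 fold changes of 1.76 ± 0.13, 2.13 ± 0.13, 1.87 ± 0.22 and 2.17 ± 0.18 in shHUWE1 cells, control vector cells, with and without doxycycline. CHAC1, which breaks down glutathione, changed by 0.88 ± 0.22, 1.41 ± 0.19, 2.02 ± 0.24 and 2.51 ± 0.21 in that order. SESN2, a leucine-binding inhibitor of mTORC1 signalling, changed by 0.78 ± 0.16, 1.15 ± 0.16, 2.03 ± 0.22 and 2.26 ± 0.19.

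**Figure D1:**
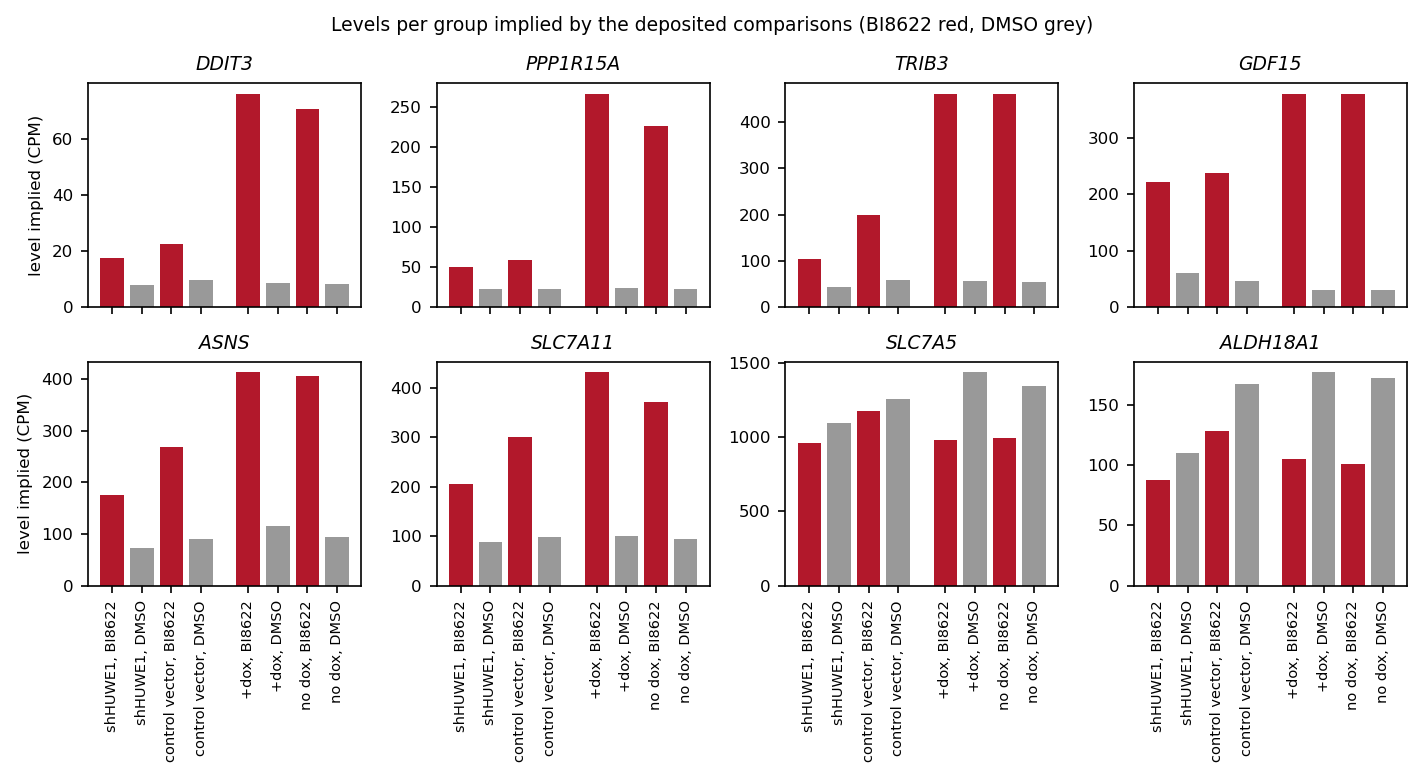
Group levels in CPM (linear axes from 0) worked out from the deposited fold changes and mean levels for 8 of the 32 genes, with BI8622 in red and DMSO in grey; no error bars are drawn because the tables hold no values per library. DMSO levels of DDIT3, PPP1R15A and TRIB3 are alike in both experiments while their BI8622 levels are higher in the MIZ1 experiment, and SLC7A5 and ALDH18A1 are lower with BI8622 there.

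The 9 amino acid transporters split by gene. SLC7A11, the cystine/glutamate exchanger, stood at 206 CPM with BI8622 and 87.6 CPM with DMSO in shHUWE1 cells and at 300 and 98.3 CPM in control vector cells, 2.35-fold and 3.06-fold higher, and rose 4.23-fold with doxycycline and 3.91-fold without it. SLC38A2, the sodium-coupled transporter SNAT2 for small neutral amino acids, rose 1.83-fold, 2.08-fold, 2.74-fold and 2.65-fold in shHUWE1 cells, control vector cells, with and without doxycycline. SLC6A9, a glycine transporter, changed by 0.54 ± 0.17, 0.81 ± 0.16, 1.03 ± 0.23 and 1.38 ± 0.20 on the log2 scale. A second set was called in control vector cells but not in shHUWE1 cells. The values were 0.34 ± 0.17 in shHUWE1 cells and 0.66 ± 0.16 in control vector cells for SLC1A4, an alanine, serine and cysteine carrier. For the glutamine carrier SLC1A5 they were 0.33 ± 0.12 and 0.55 ± 0.13, and for the cationic amino acid carrier SLC7A1 0.25 ± 0.12 and 0.38 ± 0.13. For SLC43A1, a carrier of large neutral amino acids, they were -0.05 ± 0.15 and 0.41 ± 0.15. The difference between the 2 responses was called for none of these 4 genes. In the MIZ1 experiment SLC1A4 rose 1.93-fold with and 2.14-fold without doxycycline, SLC1A5 rose 1.73-fold and 1.80-fold, and SLC7A1 rose 1.62-fold and 1.49-fold. SLC43A1 was called only without doxycycline (0.52 with, 0.89 without).

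The 2 chains of the large neutral amino acid exchanger LAT1, which brings leucine into the cell, went apart from the other transporters. SLC7A5, the transport chain, stood at 963 CPM with BI8622 and 1094 CPM with DMSO in shHUWE1 cells and at 1175 and 1259 CPM in control vector cells, with neither difference called. It fell to 979 CPM with BI8622 against 1446 CPM with DMSO in the presence of doxycycline (adjusted p = 0.0499) and to 992 against 1347 CPM in its absence (adjusted p = 0.0487). Both calls were at the threshold, and with fold changes recentred on the median gene the adjusted p-values were 0.0677 with and 0.0556 without doxycycline. SLC3A2, the heavy chain that SLC7A5 shares with SLC7A11, had values of -0.23 ± 0.12 in shHUWE1 cells, -0.10 ± 0.13 in control vector cells and 0.01 ± 0.21 with doxycycline, and stood at 414 CPM with BI8622 and 415 CPM with DMSO without doxycycline.

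Of the 6 amino acid enzymes measured, ASNS, CTH and PCK2 were called higher in all responses. ASNS, which makes asparagine and is a classical target of ATF4, stood at 176 CPM with BI8622 and 72.1 CPM with DMSO in shHUWE1 cells and at 268 and 90.3 CPM in control vector cells. It stood at 412 CPM with BI8622 and 117 CPM with DMSO in the presence of doxycycline and at 405 and 93.9 CPM in its absence, 3.54-fold and 4.32-fold higher. CTH, which makes cysteine from cystathionine, changed by 0.52 ± 0.16 in shHUWE1 cells, 1.22 ± 0.16 in control vector cells, 1.30 ± 0.23 with doxycycline and 1.48 ± 0.20 without it. PCK2, the mitochondrial phosphoenolpyruvate carboxykinase, changed by 0.89 ± 0.13, 1.28 ± 0.13, 1.45 ± 0.22 and 1.89 ± 0.18. GPT2, the mitochondrial alanine aminotransferase, was called only in control vector cells (0.37 ± 0.13, adjusted p = 0.0287) and had a value of 0.02 ± 0.13 in shHUWE1 cells. The difference between these 2 responses was not called (-0.35 ± 0.18). In the MIZ1 experiment GPT2 had values of 0.20 with and 0.33 without doxycycline.

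The proline branch did not follow. ALDH18A1, the enzyme that starts proline synthesis from glutamate, stood at 88 CPM with BI8622 and 110 CPM with DMSO in shHUWE1 cells (adjusted p = 0.0687) and fell to 128 CPM with BI8622 in control vector cells, against 168 CPM with DMSO (adjusted p = 0.0193). It fell to 105 CPM with BI8622 against 178 CPM with DMSO in the presence of doxycycline and to 101 against 172 CPM in its absence (adjusted p = 0.00507 and 0.000203). PYCR1, the mitochondrial reductase at the end of the same branch, was not called in any response, and its values ran from -0.06 ± 0.13 in shHUWE1 cells to 0.31 ± 0.18 without doxycycline.

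The secreted factors, the receptor and the tRNA exporter rose in all responses. GDF15, a stress cytokine, had the largest log2 fold change of the 32 genes in each of the 4 responses. GDF15 stood at 223 CPM with BI8622 and 60.1 CPM with DMSO in shHUWE1 cells, 3.71-fold higher, and at 238 and 46.4 CPM in control vector cells, 5.13-fold higher. It stood at 378 CPM with BI8622 and 30.2 CPM with DMSO in the presence of doxycycline and at 378 and 30.5 CPM in its absence, 12.5-fold and 12.4-fold higher. Among all genes it ranked 64 in shHUWE1 cells, 54 in control vector cells, 33 with and 56 without doxycycline by log2 fold change. STC2, a secreted glycoprotein, changed by 0.59 ± 0.13, 0.77 ± 0.13, 0.91 ± 0.21 and 1.08 ± 0.18 in shHUWE1 cells, control vector cells, with and without doxycycline. The lipoprotein receptor VLDLR had few reads behind its values, at 4.46 CPM with BI8622 and 1.91 CPM with DMSO in shHUWE1 cells and 7.23 and 1.87 CPM in control vector cells, and its standard errors were the widest of the 32 genes. XPOT, which exports tRNA from the nucleus, changed by 0.51 ± 0.13 in shHUWE1 cells, 0.77 ± 0.13 in control vector cells and 1.24 both with (± 0.21) and without (± 0.18) doxycycline.

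**Figure D2:**
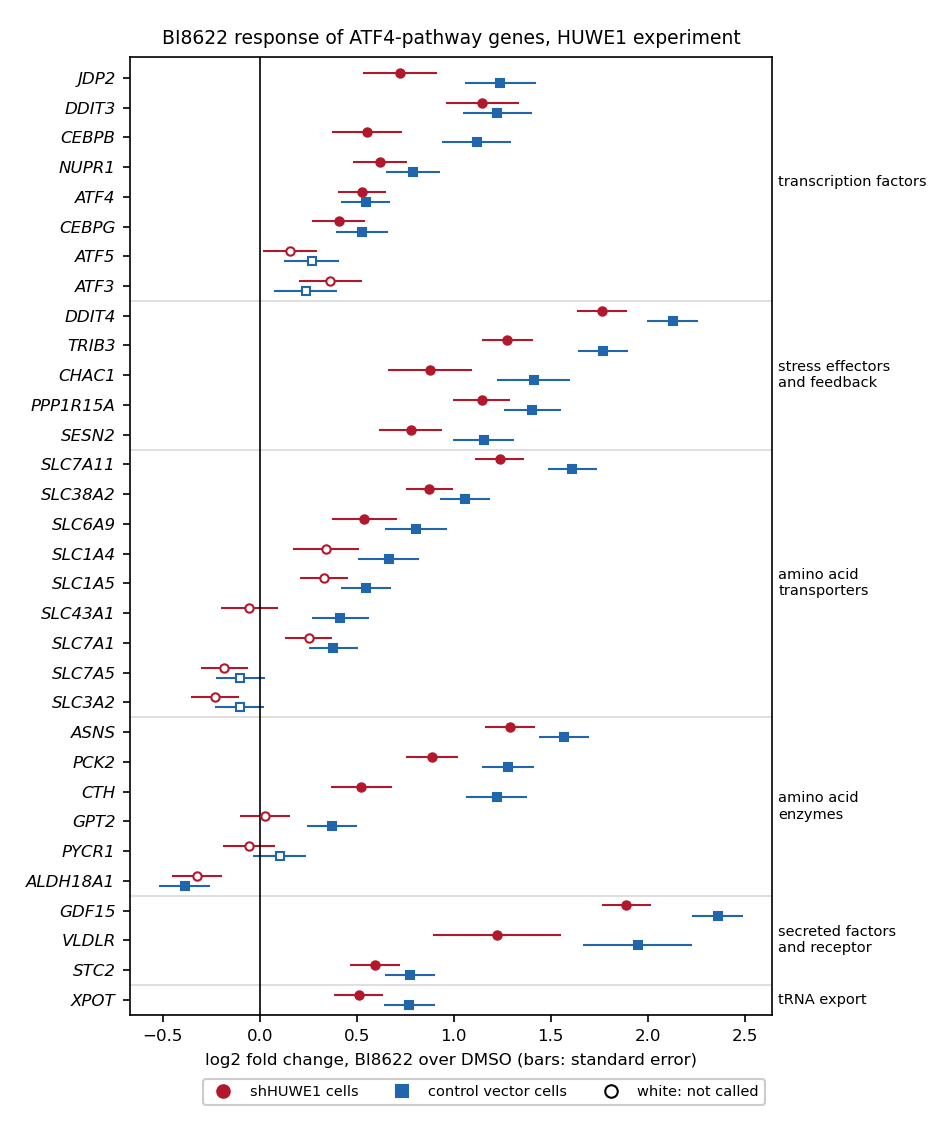
Log2 fold change with BI8622 of each of the 32 genes in shHUWE1 cells (red circles) and control vector cells (blue squares), by role, with bars of 1 standard error on either side and white symbols where a gene was not called. The red symbol lies left of the blue one for 30 of the 32 genes.

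HUWE1 depletion without the inhibitor left the pathway near or slightly below its level in control vector cells. In DMSO 0 of the 32 genes were called higher and 1 lower in shHUWE1 cells, where 0.586% of all genes were called higher and 0.372% lower. The gene that fell was ALDH18A1, at 110 CPM in shHUWE1 cells against 167 CPM in control vector cells, -0.61 ± 0.15 (adjusted p = 0.0078). At an unadjusted p under 0.05 by the same edgeR test, 6 genes were lower and 1, GDF15 (0.38 ± 0.16), was higher, beside 757 lower and 1063 higher of all 25244 genes. The log2 difference was below 0 for 25 of the 32 genes, with a median of -0.19, whereas it was below 0 for 50.2% of all genes, with a median of 0.00. ATF4 had a difference of -0.21 ± 0.14, TRIB3 one of -0.44 ± 0.16 and CEBPG one of -0.41 ± 0.15, none of them called.

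In shHUWE1 cells given BI8622, set against control vector cells given DMSO, 18 of the 32 genes were called higher and 3 lower, beside 11.6% and 12.5% of all genes. This comparison shares its libraries with those above and is given for its own values only. GDF15 differed by 2.27 and DDIT4 by 1.55, and ALDH18A1 was lowest at -0.93. SLC7A5 and SLC3A2, with -0.38 (adjusted p = 0.00813) and -0.40 (adjusted p = 0.00594), were the other genes called lower. CEBPG had a difference of 0.00, since its level was 74.2 CPM in shHUWE1 cells with BI8622 and 74.6 CPM in control vector cells with DMSO.

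The signed log2 fold change with BI8622 was lower in shHUWE1 than in control vector cells for 30 of the 32 genes, ATF3 and ALDH18A1 being the exceptions, by a median of -0.26. For genes below 0 in both, such as SLC7A5 and SLC3A2, a lower value is a larger fall. Over all genes the signed value was lower for 49.9% and the median difference was 0.00. No single gene of the 32 passed the test of the difference between the responses over all genes, in which 0.0119% of genes were called higher and 0.182% lower. At an unadjusted p under 0.05 it gave 9 of the 32, all with the lower value in shHUWE1 cells, beside 975 of all 25244 genes, 681 of them with the lower value. CTH had the lowest p-value, with a difference of -0.70 ± 0.22 (SE) and a 95% interval of -1.14 to -0.26 (adjusted p = 0.358). TRIB3 differed by -0.49 ± 0.19 (adjusted p = 0.681) and GDF15 by -0.47 ± 0.18 (adjusted p = 0.742). These 3 genes were the ones called when the z values were divided by their own scale, so the outcome of this test depends on how wide its standard errors are taken to be. CEBPB, SLC43A1, SLC7A11, PCK2, DDIT4 and JDP2 were the other 6. For ATF4 the responses differed by -0.02 ± 0.18, with a 95% interval of -0.37 to 0.32, and for DDIT3 by -0.08 ± 0.26 (-0.58 to 0.43).

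Other genes that rose with BI8622 were set beside them. Of the 3032 other genes that were called higher without doxycycline, in the separate MIZ1 experiment, 2003 (66.1%) had a lower log2 fold change in shHUWE1 than in control vector cells, with a median difference of -0.10. Of the 27 pathway genes called higher without doxycycline 26 did, with a median difference of -0.28. Their median response was 0.62 in shHUWE1 and 1.12 in control vector cells, and that of the 3032 other genes was 0.46 and 0.56. The pathway genes thus had larger responses to begin with, and the part of this in the larger difference was not tested. Across the 32 genes the responses of shHUWE1 and control vector cells had a Pearson correlation of 0.96, given as a description, since the genes share their libraries.

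**Figure D3:**
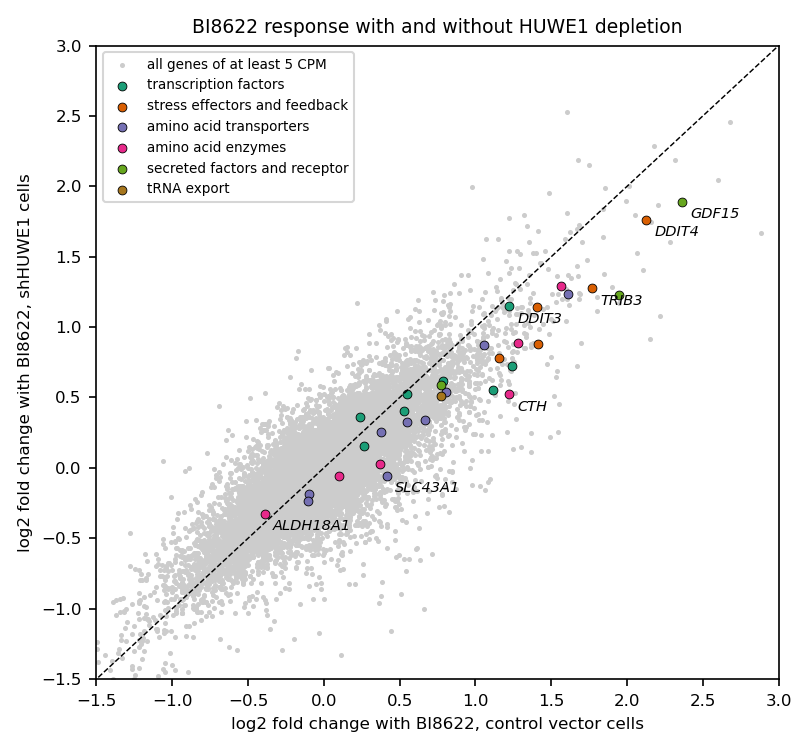
Log2 fold change with BI8622 in shHUWE1 cells (vertical axis) against control vector cells (horizontal axis) for 16942 genes of at least 5 CPM (grey, 17 of them outside the axes) and the 32 pathway genes, coloured by role. The dashed line marks equal responses, and 30 of the 32 pathway genes lie below it.

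Doxycycline had no effect on the pathway that could be detected here. In DMSO 0 of the 32 genes were called either way and 0 had an unadjusted p under 0.05 in the edgeR test (523 of all 25791 genes did), beside 0.0271% of all genes called higher and 0.00388% lower. The median log2 difference of the 32 genes between cells with and without doxycycline was 0.08 in DMSO and 0.01 in BI8622, where again 0 were called (0.0194% of all genes higher and 0.0116% lower). The largest value in DMSO was 0.43 for CHAC1. Over genes above 16 CPM, the z values of these comparisons spread with a robust scale of 0.489 in DMSO and 0.56 in BI8622, where a calibrated test gives about 1, so differences of moderate size could be missed here.

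Induction of the MIZ1 shRNA also left the BI8622 response without a difference that passed the test. The signed log2 fold change was lower with than without doxycycline for 19 of the 32 genes, with a median difference of -0.09. Over genes of at least 5 CPM the median difference was -0.01, and the share of genes with a lower value is not given here. Of the 32 genes, 0 had an unadjusted p under 0.05 (240 of all 25791 genes did) or were called, where 0% of all genes were called higher and 0.00388% lower. For GDF15 the responses differed by 0.02 ± 0.28 (95% interval -0.53 to 0.56), for TRIB3 by -0.06 ± 0.28 (-0.60 to 0.48) and for ATF4 by -0.16 ± 0.28 (-0.70 to 0.38). PCK2 and CHAC1 had the lowest p-values, with differences of -0.45 ± 0.28 and -0.50 ± 0.32, and both were called when the z values were divided by their own scale. Intervals of this width do not show equal responses.

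**Figure D4:**
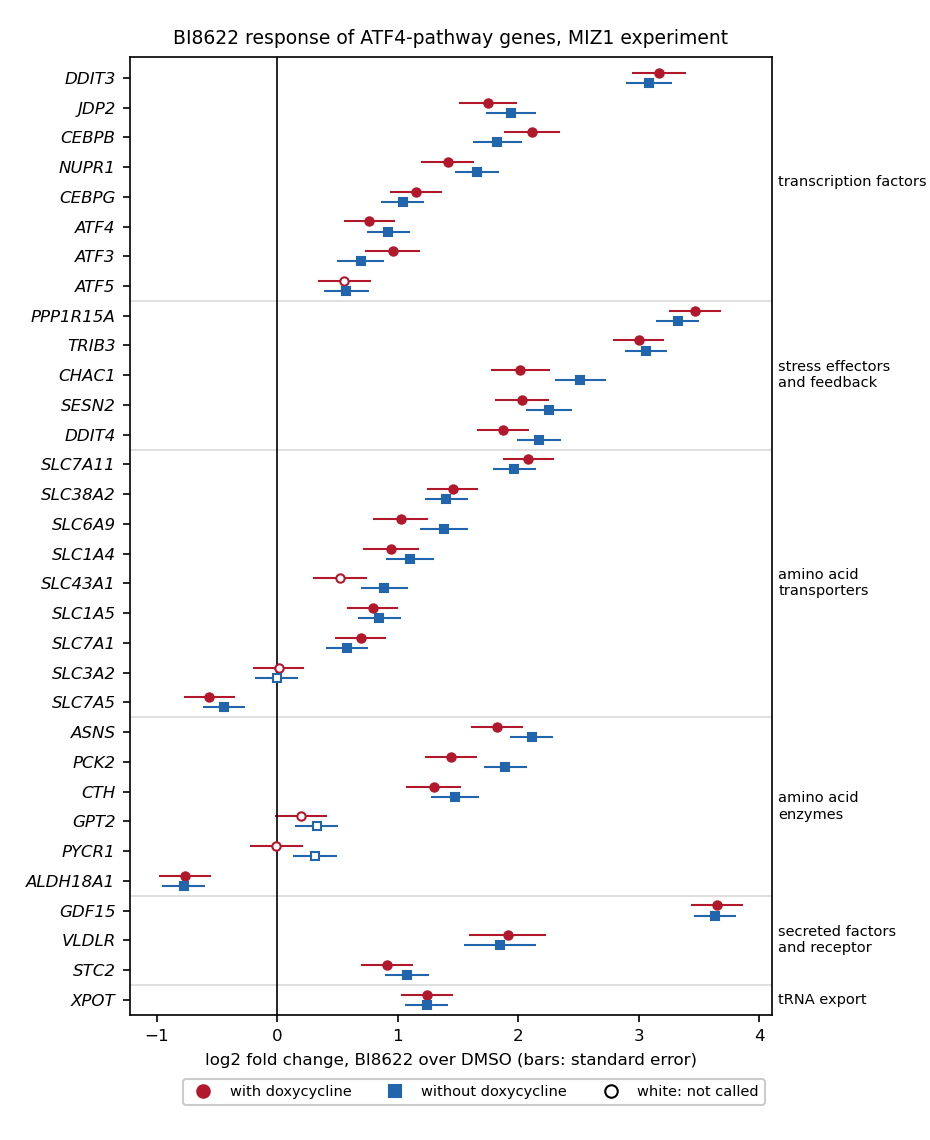
Log2 fold change with BI8622 of each of the 32 genes with doxycycline (red circles) and without it (blue squares), by role, with bars of 1 standard error on either side and white symbols where a gene was not called. Most pairs overlap within their bars, and ALDH18A1 and SLC7A5 lie below 0.

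The responses of the 2 experiments are given side by side without a test, since their libraries were normalized and compared separately. At the same dose and time, the log2 fold change without doxycycline was larger than in control vector cells for 28 of the 32 genes. At least 2-fold higher levels with BI8622 were reached by 8 genes in shHUWE1 cells, 15 in control vector cells, 19 with doxycycline and 21 without it. The same counts over all genes are not given here, so these cannot be read as particular to the pathway. The gap was wide for PPP1R15A (3.32 without doxycycline, 1.40 in control vector cells) and DDIT3 (3.09 and 1.22), and small for DDIT4 (2.17 and 2.13). Responses over all genes above 5 CPM also spread more widely in the MIZ1 experiment. Their standard deviation was 0.59 without and 0.55 with doxycycline, against 0.42 in control vector and 0.38 in shHUWE1 cells. How much of the gaps goes with this wider spread was not tested. Cell population, vector and library preparation cannot be told apart between the experiments.

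Other genes near the pathway moved less uniformly in control vector cells, where 9.73% of all genes were called higher and 9.31% lower. Of 20 cytosolic aminoacyl-tRNA synthetases 11 were called higher and 2 lower, with a median of 0.34, led by WARS (0.69 ± 0.13), GARS (0.67 ± 0.13) and CARS (0.62 ± 0.13). Of 7 enzymes of serine synthesis and mitochondrial one-carbon metabolism 3 were called higher, the mitochondrial folate enzyme MTHFD2 (0.95 ± 0.13) and the serine synthesis enzymes PSAT1 (0.89 ± 0.13) and PHGDH (0.62 ± 0.13), and 0 lower. Of 15 eIF2alpha kinases, phosphatases and eIF2 factors 2 were called higher and 3 lower, with a median of -0.19. Of 14 amino acid transporters outside the 33 genes only SLC38A1, the glutamine transporter SNAT1, was called higher (0.66 ± 0.12). In shHUWE1 cells the counts were 4 of 20 synthetases higher and 2 lower, 2 of 7 serine and one-carbon enzymes higher and 0 lower, 1 of 15 eIF2 genes higher and 3 lower, and 1 of 14 transporters higher and 2 lower. Of all genes there, 7.56% were called higher and 8.07% lower. Shares called higher lay near those of all genes for eIF2 genes (13.3% in control vector, 6.67% in shHUWE1 cells) and transporters (7.14% in both).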

How the data were processed

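RNA of Ls174T cells was sequenced from poly-A RNA in 2 experiments of 8 libraries, 2 per group. Per the study's methods and the notes with the samples, the authors used hg19, Bowtie 0.12.8, CASAVA, FastQC and edgeR. The deposited tables hold, for each pair of groups that the authors compared, the log2 fold change, the mean log2 CPM and the edgeR p-value and adjusted p-value of each gene. The sources used here do not give the normalization factors, the edgeR version, the dispersion setting or the library totals. These columns of the authors' own comparisons were used because the tables hold no others (0 columns of per-sample values were left unused), and no new test was run on reads. Nothing states that the 2 libraries of a group came from different cultures. The spread behind the p-values, which genes of one expression level share, may therefore be only technical. The kit used for each library is not stated either.

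Recomputing the Benjamini-Hochberg adjustment over all genes gave back the deposited adjusted p-values. Each p-value was turned into a z value with the sign of the change, and log2 fold change divided by z followed a curve of expression level (median departure 0.399% for BI8622 in control vector cells and 1.08% at most), which was used as the standard error. Group levels were solved from fold change and mean level, and the routes to one level differed by a factor of 1.06 at most. Differences of responses were tested approximately, as z of the difference with the standard errors of both, adjusted over all genes. In tables simulated from the levels of the HUWE1 experiment, the test recovered 58% of genes differing by 1 (log2) and 5% differing by 0.5. Of its calls there, 5.97% were false. From the levels of the MIZ1 experiment it recovered 41% and 5%, with 19.3% of its calls false. Depth and dispersion were set alike for both simulations and were not fitted to the data, so these rates need not hold for the real tables. Genes named are all 33 members, HUWE1, ZBTB17 and at most 3 called genes of each of the lists, taken by size of change in control vector cells. The members and lists were chosen with earlier results of these data known. Python 3.11.15, pandas 2.3.3 and SciPy 1.17.1 were used. ChIP sequencing was not analysed here.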

Additional observations from a re-analysis of the deposited data

How the results depend on the processing

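The counts of pathway genes called, both directions together, kept within 1.5 times of their value in all 8 comparisons at an adjusted p under 0.01, with a minimum of 1.5-fold, with p-values adjusted over genes of at least 1 CPM and with fold changes recentred on the median gene of at least 5 CPM, and so did the 8 medians. The few calls of lower genes held less well. An adjusted p under 0.01 left 1 of 2 with and 1 of 2 without doxycycline and 0 of 1 in control vector cells, the minimum of 1.5-fold left the same numbers and 1 of 3 in shHUWE1 cells with BI8622 against control vector cells with DMSO, and recentring left 1 of 2 with and 1 of 2 without doxycycline. Dividing the z values of the differences by their scale (0.733 and 0.438) moved the number of genes called from 0 to 3 in the HUWE1 experiment and from 0 to 2 in the MIZ1 experiment, because it narrows the standard errors. The longer element TGATGCAAT was found in 0 of 28 promoters, against 9 with TGATGNAA. It is rare, in 80 of 27305 genes with a window (0.293%), so a count of 0 among 28 says little. Recentring changed the sign of 5 differences near 0, to 0.00 for SLC3A2 without doxycycline, 0.02 for PYCR1 with doxycycline, 0.01 for CEBPG in shHUWE1 cells with BI8622 against control vector cells with DMSO, and 0.00 for SLC1A5 and STC2 between cells with and without doxycycline in DMSO and in BI8622. It ended both calls of SLC7A5 and gave SLC1A5 a call in shHUWE1 cells (0.35, adjusted p = 0.0364). No paired analysis was possible because the tables hold no values per library, and leaving out a replicate was not run for the same reason. With 2 libraries per group, the standard error at 50 CPM was 0.14 (log2) in both BI8622 responses of the HUWE1 experiment. It was 0.22 with and 0.19 without doxycycline. Changes within these errors could not be told from 0, and some larger ones were not called either, such as ATF5 with doxycycline (0.56 ± 0.22).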

Other observations

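Other stress programs were also counted with BI8622 in control vector cells, where 9.73% of all genes were called higher and 9.31% lower. Of 15 NRF2 target genes 6 were called higher and 0 lower, led by OSGIN1 (1.16 ± 0.24 on the log2 scale), the ferritin heavy chain FTH1 (0.71 ± 0.12) and the quinone reductase NQO1 (0.54 ± 0.13). In shHUWE1 cells 2 were called higher, beside 7.56% of all genes, and the difference between the responses was called for 0 of the 15. Of 19 genes of the ATF6 and XBP1 arms of the unfolded protein response 5 were called higher and 4 lower. SDF2L1, an endoplasmic reticulum chaperone cofactor, was at -1.34 ± 0.16, while HERPUD1 and EDEM1, of endoplasmic reticulum-associated degradation, were at 0.78 ± 0.14 and 0.73 ± 0.13. In the MIZ1 experiment 6 of 15 NRF2 targets were called higher and 0 lower with doxycycline, and 9 and 1 without it. For the 19 unfolded protein response genes the counts were 7 and 1 with, and 6 and 1 without doxycycline. The shares of all genes were 7.74% and 7.86% with, and 12.2% and 11.6% without it.

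Of 15 p53 target genes 3 were called higher and 3 lower in control vector cells, among them the apoptosis gene BBC3 (0.66 ± 0.21), FDXR (-0.62 ± 0.18) and the death receptor gene FAS (-0.50 ± 0.19). Of 10 mitochondrial chaperones and proteases 0 were called higher and 2 lower, the chaperonin genes HSPE1 (-0.67 ± 0.13) and HSPD1 (-0.37 ± 0.12), and in shHUWE1 cells 0 were called higher and 2 lower. Of 10 colon epithelial markers 5 were called higher and 2 lower in control vector cells, with KRT20 at 1.30 ± 0.25, CDX1 at -0.76 ± 0.14 and KRT8 at 0.66 ± 0.12. The shares of all genes called higher and lower were 9.73% and 9.31% in control vector cells and 7.56% and 8.07% in shHUWE1 cells.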
